A study of Mus musculus with 79 samples.

Results

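Pyramidal neurons (PYR) and somatostatin interneurons (SST) of the medial prefrontal cortex were set against each other in unstressed control mice. The comparison used 10 PYR and 10 SST libraries, 20 of the 79 in the series, chosen by their labels alone: 1 library of each type from each of 10 mice, paired by mouse number. The reads of all genes entered 1 fit, so each result below is a direct difference between these types. The genes probed to find the cells, Slc17a7 for PYR and Sst for SST neurons, differ by selection and are no finding.

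The mice of both groups were male C57Bl/6J, housed with littermates and given no stressor; their age is not given in the sources used here. The same types from 10 further mice, single-housed and put through unpredictable chronic mild stress (UCMS) for 5 weeks, served as a second, separate set of 20 libraries. Cells were stained with RNAscope probes in frozen coronal sections and cut out by laser, 130 to a library, and total RNA went into a stranded kit for picogram input. A library is thus a small pool of 1 mouse. A laser cut also takes in the processes of neighbouring cells, and in such pools fewer cells of a type and less RNA per cell cannot be told apart.

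Pyramidal neurons are the excitatory projection cells of the cortex: they load glutamate into vesicles through vesicular transporters, carry spines, and descend from progenitors of the dorsal forebrain under the transcription factors Neurod2 and Tbr1. SST interneurons descend from the medial ganglionic eminence under Nkx2-1 and Lhx6, make GABA with the decarboxylases Gad1 and Gad2, release neuropeptides, and inhibit the distal dendrites of pyramidal cells. Excitatory synapses onto SST cells are known to start weak and to strengthen during trains of spikes, a property tied to the postsynaptic protein Elfn1.

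Values are normalized counts: the authors scaled the reads of every gene by 1 factor per library. Totals ran from 10170307 to 12727616 reads in PYR and from 7817407 to 13053871 in SST libraries, and the number of genes detected by any read from 12256 to 14894 in PYR and from 10126 to 19519 in SST libraries. Slc17a7 stood at 11362 to 16661 in PYR libraries (median 14327), against 2408 to 5069 in SST libraries (median 2991), and Sst at 0.783 to 335 in PYR libraries (median 31.5), against 7131 to 20779 in SST libraries (median 12726), with no overlap in either. The SST libraries thus held 22.9% of the PYR level of Slc17a7, and the PYR libraries 0.672% of the SST level of Sst. SST libraries U1 and U6 had the most Slc17a7, 4999 and 5069, and SST library U10 was alone in holding much of the probed genes of the other interneurons, 279 Pvalb and 304 Vip. Other markers of those interneurons were not confined to U10. Summed parvalbumin markers, Kcnc1 and Kcnc2 among them, were 5316 ± 1218 in SST and 1220 ± 386 in PYR libraries (exact sign-flip test, adjusted p = 0.00742). Those of VIP and other non-SST interneurons were 4338 ± 673 in SST and 3637 ± 720 in PYR libraries (same test, adjusted p = 0.142). Models of microRNA genes took 29.0% ± 4.33 of the reads in PYR and 24.6% ± 3.10 in SST libraries (adjusted p = 0.0689 over 19 library measures, exact sign-flip test). Summed markers of oligodendrocytes, their precursors, microglia and vessels did not differ beyond the spread between mice, whereas 12 astrocyte markers summed to 9387 ± 1985 in PYR and 7488 ± 1329 in SST libraries (SD, n = 10 each; exact sign-flip test over mice, adjusted p = 0.0371 over 19 library measures; higher in PYR in 8 of 10 mice). Most of that sum was Slc1a2 (7558 against 5503, log2 fold change 0.44, adjusted p = 5.54e-05); S100b was also called (139 against 21.9, adjusted p = 0.0298) and the other 10 were not, Gfap among them at 34.4 against 92.4. The call of S100b ended in 10 of 25 other fits, among them edgeR (adjusted p = 0.180) and the fits without mouse 3, 4, 5, 6 or 8, and without mice 4, 6, 8 and 10 no astrocyte marker was called. No marker of these lists was at 0 in all 20 libraries. SST libraries were less alike, with a median correlation of 0.684 between them against 0.763 between PYR libraries. Between a PYR and an SST library the median was 0.700, so SST libraries were no more alike than libraries of different types by this measure.

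The 2 types differed in 1174 of 16666 genes tested (7.04%), by limma with the mouse as a block and a Benjamini-Hochberg adjusted p under 0.05. Of these, 682 were higher in PYR (4.09% of genes tested) and 492 lower (2.95%), and 475 and 380 of them differed by at least 2-fold; 2871 genes had an unadjusted p under 0.05. In 82 genes (0.492%) every PYR library lay above every SST library, and in 91 (0.546%) every SST library lay above every PYR library. The shares of 4.09% higher and 2.95% lower are those against which the counts of every gene list below stand. The standard errors rest on a variance trend shared by all genes, so an adjusted p far under the 0.00195 that 10 mice allow in an exact test reflects that model. With 1 prior variance for all genes in place of the trend, 411 genes were called, 180 higher and 231 lower in PYR, so that the share higher was 43.8%, against 58.1% with the trend. Of the 108 genes described from the naming rule 35 lost their call there: Arhgap32, Miat, Rnu1a1, Meg3, Rian, Peg13, Camk2a, Camk2b, Slc1a2, Foxp1, Crym, Gria2, Gria4, Grin2a, Grin2b, Grik2, Grik3, Gabra5, Kcnh1, Kcnma1, Scn2a, Chrm1, Kalrn, Bsn, Rab3c, Cplx1, Clstn1, Plxna4, Sort1, Egr3, Nptx2, Atp1b1, Rps6, Rpl3 and mt-Cytb. Both that setting and the set without 4 mice given next were chosen after seeing the data. DESeq2 on the recovered reads called 2302, and leaving out mice 4, 6, 8 and 10, whose SST libraries had the fewest or most genes with a read, 770. Fitting all 40 control libraries of the 4 neuron types together left 404 genes higher and 389 lower.

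**Figure D1:**
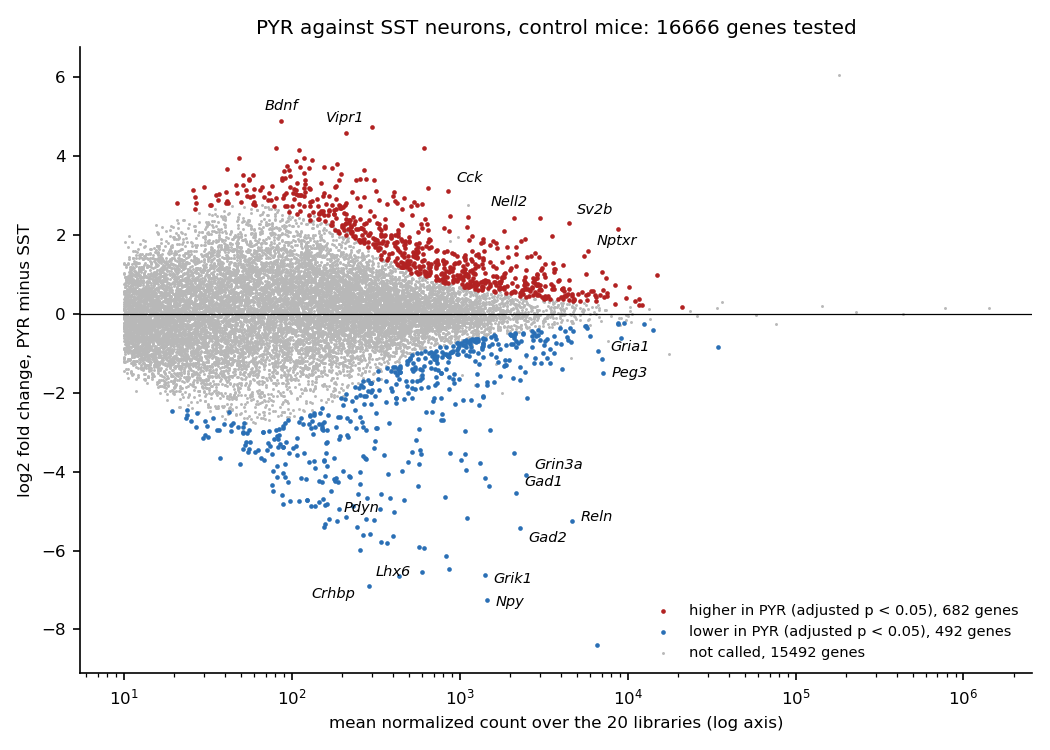
Log2 fold change, PYR minus SST, against the mean normalized count over the 20 libraries (log axis) for the 16666 genes tested, 1 point per gene. The 682 genes higher in PYR are red, the 492 lower in PYR blue and the rest grey, and calls at low counts need larger differences than calls at high counts.

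Calls were more frequent among abundant genes. Among genes with a mean of 10 to 50 normalized counts 0.731% were called, and among those of 1000 or more 31.2%. The span of the gene went the same way: 26.1% of protein-coding genes of at least 200 kb were called, against 5.16% of those under 10 kb. Long genes include many of the channels and adhesion proteins below, and their part in the counts was not tested.

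Of the genes that set PYR apart, Sv2b, a synaptic vesicle glycoprotein, had the most extreme statistic. It held 6041 to 8978 normalized counts in PYR libraries (median 7101) and 457 to 2281 in SST libraries (median 1646). The groups did not overlap, and its means were 7395 ± 1033 in PYR and 1571 ± 488 in SST libraries (log2 fold change 2.32, SE 0.13, adjusted p = 2.61e-70). The gene lies on GRCm38 chromosome 7, 75114894 to 75309262, minus strand. Nptxr, the transmembrane member of the neuronal pentraxins that cluster AMPA receptors, held 6821 to 10956 normalized counts in PYR libraries (median 8668) and 2205 to 3749 in SST libraries (median 2977), again without overlap (log2 fold change 1.60, SE 0.10, adjusted p = 2.95e-52; chromosome 15, 79786351 to 79804766, minus strand). An annotated neighbour on the same strand, Npcd, shares 17.2% of its exon bases, and reads there cannot be told apart. Nell2, a secreted glycoprotein of neurons, ranged from 4052 to 7059.8 in PYR libraries (median 4965), against 524 to 1658 in SST libraries (median 852) (log2 fold change 2.42, SE 0.16, adjusted p = 2.84e-51; chromosome 15, 95075230 to 95528559, minus strand). Every PYR library stood above every SST library.

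The next genes that the rule named have varied roles. Rasgrp1, an exchange factor that turns on Ras in answer to diacylglycerol, averaged 5546 ± 749 in PYR and 1595 ± 1091 in SST libraries (log2 fold change 1.98, SE 0.14, adjusted p = 7.17e-44); SST library U6, at 4589, alone reached into the PYR range. Itpr1, the calcium channel of the endoplasmic reticulum, averaged 9439 ± 1179.9 in PYR and 4561 ± 973 in SST libraries (log2 fold change 1.07, SE 0.09, adjusted p = 3.73e-30). For Prkcb, protein kinase C beta, the means were 5072 ± 857 in PYR and 2078 ± 507 in SST libraries (log2 fold change 1.301, SE 0.13, adjusted p = 8.41e-22), and for Arpp21, a cAMP-regulated phosphoprotein, 3825 ± 457 in PYR and 1079 ± 406 in SST libraries (log2 fold change 1.90, SE 0.16, adjusted p = 1.53e-28). Neither overlapped. Lingo1, a membrane protein known to restrain axon growth and myelination, ran from 2522 to 4893 in PYR libraries (median 3586), against 339 to 995 in SST libraries (median 638) (log2 fold change 2.43, SE 0.19, adjusted p = 1.49e-35). The other 7 of the 15 genes that the rule named were Olfm1, Nrgn, Cobl, Enc1, Fat3, Arhgap32 and Phyhip, with log2 fold changes from 1.02 for Arhgap32, a GTPase-activating protein, to 2.10 for Cobl, an actin nucleator. Nrgn, the calmodulin-binding neurogranin of dendritic spines, stood at 3590.2 against 1047 and Enc1, an actin-binding kelch protein, at 5825 against 2455. Fat3, a giant cadherin, was at 4135 against 1499, Olfm1, a secreted partner of AMPA receptors, at 8095 against 2972, and Phyhip at 3899 against 1421; all 7 were higher in PYR in 10 of 10 mice.

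**Figure D2:**
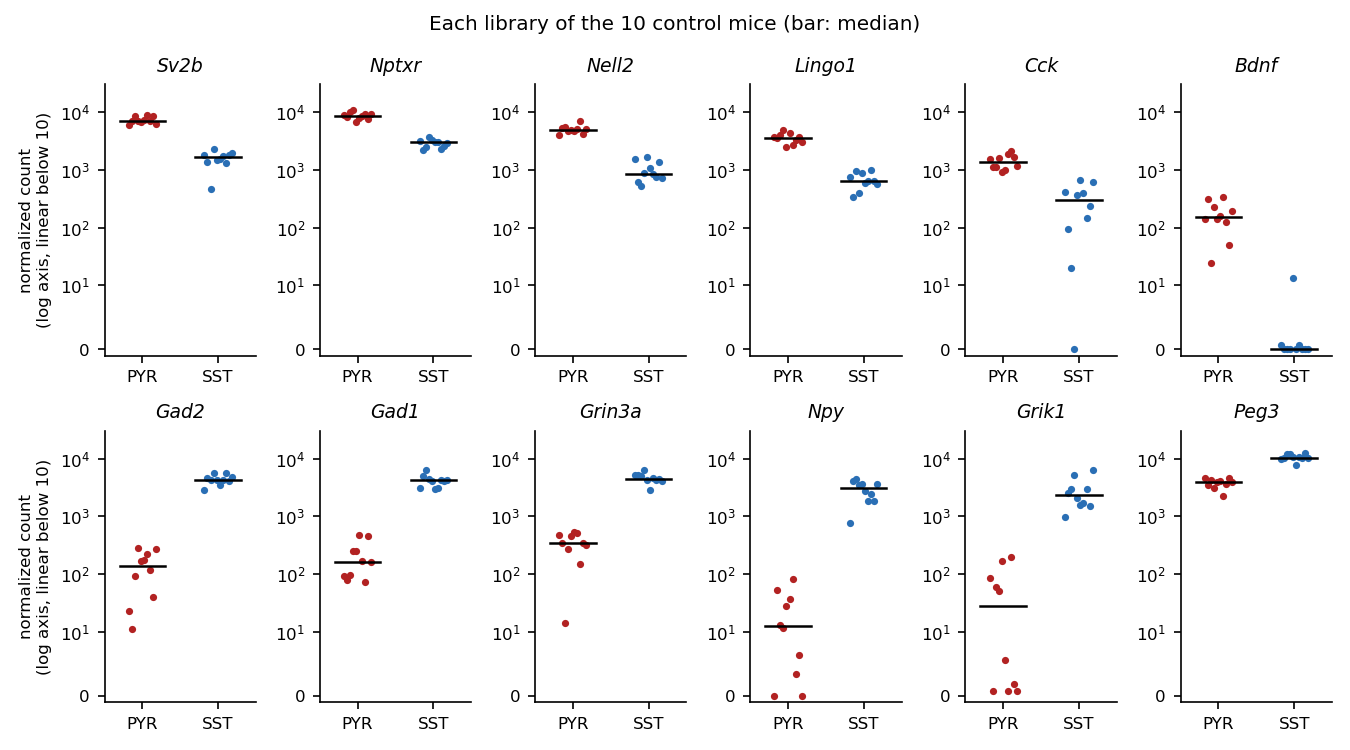
Normalized counts of 12 genes in each of the 10 PYR (red, left) and 10 SST libraries (blue, right) of control mice, on a log axis that is linear below 10, with the median as a bar. In all 12 genes shown the groups do not overlap: the upper row was higher in PYR, with Bdnf at 0 in most SST libraries, and the lower row lower, from Peg3 at a log2 fold change of -1.49 to Npy at -7.25.

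On the SST side the GABA machinery led. Gad2 held 11.1 to 285 normalized counts in PYR libraries (median 140.4) and 2897 to 5713 in SST libraries (median 4289) (log2 fold change -5.42, SE 0.29, adjusted p = 3.98e-75; chromosome 2, 22622205 to 22693874, plus strand). Gad1 held 72.9 to 480.3 in PYR libraries (median 163), against 2913 to 6237 in SST libraries (median 4192) (log2 fold change -4.53, SE 0.25, adjusted p = 8.25e-68; chromosome 2, 70553072 to 70602014, plus strand). The PYR libraries therefore carried 3.18% and 5.11% of the SST means. Slc32a1, which loads GABA into vesicles, averaged 35.8 ± 53.2 in PYR and 1113 ± 353 in SST libraries (log2 fold change -5.91, SE 0.67, adjusted p = 3.6e-16), and 24.9% of the exon bases of Slc32a1 lie under an antisense gene model. Of 11 genes of GABA synthesis, loading and uptake, 6 were lower in PYR and 0 higher, with a median log2 fold change of -1.18, against 0.06 over all genes tested. The 6 include Abat, which breaks GABA down, and the glutamine carrier Slc38a1.

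Genes known from SST cells followed. Elfn1 ranged from 27.6 to 261 in PYR libraries (median 149), against 1673 to 4137 in SST libraries (median 2896) (log2 fold change -4.37, SE 0.30, adjusted p = 1.39e-44). Grin3a, an unusual NMDA receptor subunit that lowers calcium entry, ranged from 14.1 to 529.5 in PYR libraries (median 346), against 2889.9 to 6394 in SST libraries (median 4513) (log2 fold change -4.09, SE 0.29, adjusted p = 1.93e-16); its adjusted p was 0.0505 without mice 4, 6, 8 and 10. Neither gene overlapped between the types. Npy, neuropeptide Y, held 0 to 81.1 normalized counts in PYR libraries (median 12.4) and 778 to 4445 in SST libraries (median 3083) (log2 fold change -7.25, SE 0.54, adjusted p = 1.52e-37; chromosome 6, 49822710 to 49829507, plus strand). Reln, the secreted glycoprotein reelin, held 16.3 to 661 in PYR libraries (median 306), against 6562 to 11199.6 in SST libraries (median 9251) (log2 fold change -5.26, SE 0.44, adjusted p = 1.13e-05). In PV and VIP libraries of the same mice Elfn1 averaged 81.5 and 1112 and Grin3a 168 and 449. Of 20 SST markers 16 were lower in PYR and 0 higher (median -3.97), Sst itself among them.

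The remaining named genes of that direction were of mixed kind. Peg3, an imprinted zinc-finger gene expressed from the paternal allele, was the most abundant among them, with 2273 to 4595 normalized counts in PYR libraries (median 3918) and 7589.8 to 12333 in SST libraries (median 10427) (log2 fold change -1.49, SE 0.09, adjusted p = 2.07e-57; chromosome 7, 6703892 to 6730431, minus strand). Satb1, a chromatin organizer needed for SST interneuron maturation, averaged 942 ± 256 in PYR and 4122 ± 1099.7 in SST libraries (log2 fold change -2.12, SE 0.17, adjusted p = 1.38e-34). Col19a1, a collagen of interneurons, averaged 212 ± 152 in PYR and 2634 ± 446 in SST libraries (log2 fold change -4.16, SE 0.30, adjusted p = 1.15e-40). Trhde, the ectoenzyme that degrades thyrotropin-releasing hormone, averaged 108 ± 100.2 in PYR and 2109 ± 703 in SST libraries (log2 fold change -5.17, SE 0.42, adjusted p = 1.19e-31). Rcan2, a regulator of calcineurin, averaged 369 ± 174 in PYR and 2680.0 ± 616 in SST libraries (log2 fold change -2.94, SE 0.24, adjusted p = 5.14e-32). None of these overlapped between the types.

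Transcription factors separated along lineage. Of 18 factors of interneuron descent 13 were lower in PYR and 1 higher, Etv5, with a median log2 fold change of -3.80. Among 19 pyramidal factors 12 were higher and 1 lower, Pou3f3, with a median of 1.83. Over all genes tested 4.09% were higher and 2.95% lower. With 1 prior variance 12 interneuron factors were lower and 5 pyramidal factors higher, and without mice 4, 6, 8 and 10 these counts were 12 and 9. Lhx6 ran from 0 to 107 in PYR libraries (median 1.96), against 756 to 1577 in SST libraries (median 1160.1) (log2 fold change -6.55, SE 0.71, adjusted p = 1.12e-17). It was at 0 in some PYR libraries and in no SST library. Neurod2 averaged 685 ± 231 in PYR and 134 ± 155 in SST libraries (log2 fold change 3.10, SE 0.53, adjusted p = 3.3e-07), with SST library U6 at 549, inside the PYR range. Zbtb18, a repressor needed for cortical projection neurons, averaged 2057 ± 325 in PYR and 629 ± 279 in SST libraries (log2 fold change 1.80, SE 0.22, adjusted p = 6.89e-14) and did not overlap.

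SST libraries were not free of pyramidal transcripts. They held 19.6% of the PYR mean of Neurod2, 29.2% of Nrgn and 33% of Tbr1, next to 22.9% of Slc17a7, while PYR libraries held 3.22% of the SST mean of Slc32a1. Without SST library U6 the share of Neurod2 was 12.8%, and without PYR library U5 that of Slc32a1 was 2.00%. The part of neighbouring pyramidal processes in the SST values was not tested. Of 14 deep-layer genes 7 were higher in PYR and 0 lower (median 1.46; 2 higher with 1 prior variance), including Tbr1 (973 against 321, log2 fold change 1.83, SE 0.34, adjusted p = 3.24e-06), Foxp1 (995 against 462, log2 fold change 1.31, adjusted p = 0.000413) and Crym, a thyroid hormone binder of corticofugal cells (439 against 138, log2 fold change 1.99, adjusted p = 0.00636, which was 0.144 with all 40 control libraries). Upper-layer genes were divided, with 2 higher and 3 lower of 10 (median 0.10; 0 and 2 with 1 prior variance). The 3 that were lower in PYR, Calb1, Rasgrf2 and Cux2, are known from interneurons as well. Rasgrf2, an exchange factor for Ras, averaged 676 ± 339 in PYR and 2219.5 ± 699 in SST libraries (log2 fold change -1.80, SE 0.22, adjusted p = 2.49e-14).

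**Figure D3:**
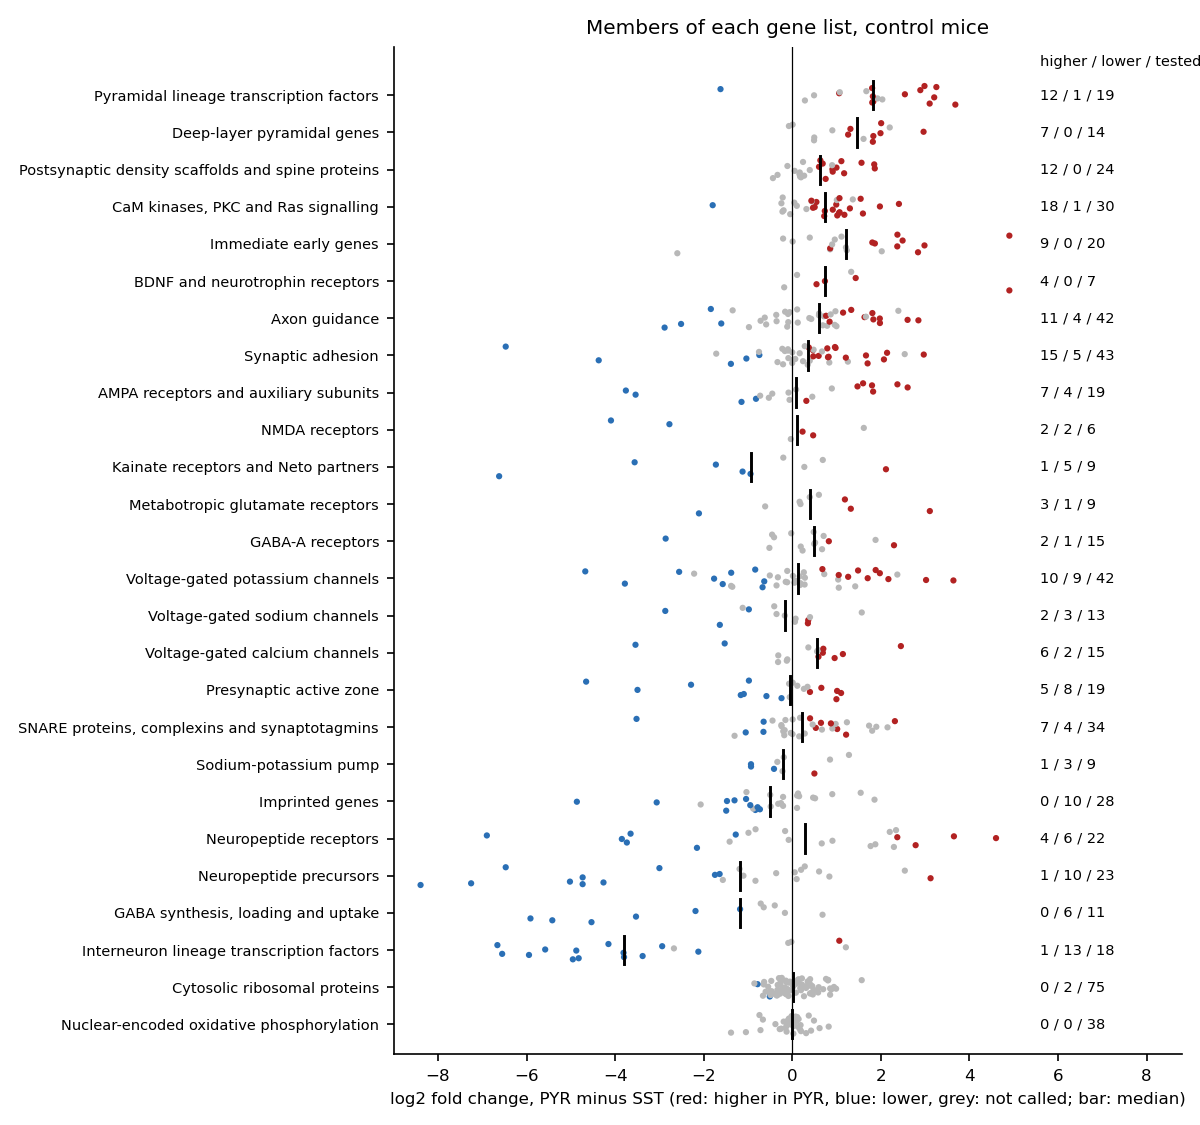
Log2 fold change, PYR minus SST, of each tested member (points) of the gene lists named at the left, with the list's median as a bar and the numbers higher in PYR, lower in PYR and tested at the right. Interneuron factors lie far to the left and pyramidal factors to the right of 0, and ribosomal and oxidative phosphorylation genes lie around 0.

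Glutamate receptors differed subunit by subunit. Among 19 AMPA receptor genes and partners 7 were higher in PYR and 4 lower (median 0.09). Gria1, a pore subunit, held 3435 to 5432.1 normalized counts in PYR libraries (median 4359.9) and 7751 to 13215 in SST libraries (median 9113) (log2 fold change -1.15, SE 0.09, adjusted p = 7.86e-35), without overlap. Gria4, a subunit of fast-gating receptors, averaged 1011 ± 409.9 in PYR and 1757 ± 654 in SST libraries (log2 fold change -0.82, SE 0.21, adjusted p = 0.0021) and overlapped; without mice 4, 6, 8 and 10 its adjusted p was 0.272. Gria2, whose edited form keeps calcium out of the pore, averaged 5737 ± 729.7 in PYR and 4613 ± 651 in SST libraries (log2 fold change 0.32, SE 0.10, adjusted p = 0.0268), and its call ended in 8 of 25 other fits. Per kilobase of all annotated exons of the gene joined, Gria1 stood at 724 in PYR and 1610.2 in SST libraries and Gria2 at 369 in PYR and 297 in SST. That length counts exons that a given transcript may lack, so these values do not rank Gria1 against Gria2. The log2 ratio of Gria1 to Gria2 was -0.394 ± 0.354 in PYR and 1.07 ± 0.310 in SST libraries (SD, n = 10 each), a difference of -1.46 (SE 0.171; lower in PYR in 10 of 10 mice; exact sign-flip test, adjusted p = 0.00391 over 8 ratios). For Gria4 to Gria2 the difference was -1.14 (SE 0.235, lower in 9 of 10 mice, exact test, adjusted p = 0.00625). All 4 pentraxin and olfactomedin partners on the list, Nptx1, Nptx2, Nptxr and Olfm1, were higher in PYR, whereas the auxiliary subunits Shisa6 and Cacng5 were lower, at 98.0 against 894 and 16.9 against 177, both named after their values were seen.

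Among kainate receptor genes 5 of 9 were lower in PYR and 1, Grik4, was higher (median -0.94; 3 lower and 0 higher with 1 prior variance). Grik1 held 0.742 to 194 normalized counts in PYR libraries (median 28.6) and 958 to 6318 in SST libraries (median 2299) (log2 fold change -6.62, SE 0.51, adjusted p = 9.86e-36), without overlap. Its partner Neto1, which slows kainate receptor gating, averaged 749 ± 266 in PYR and 2459.9 ± 708 in SST libraries (log2 fold change -1.73, SE 0.20, adjusted p = 3.13e-15). Neto2, Grik3 and Grik2 were the other 3, at 231 against 1919, 2071 against 4563 and 806 against 1589. Among 6 NMDA receptor genes Grin2a and Grin2b were higher in PYR by 0.47 and 0.23 on the log2 scale, at 5021 against 3618 and 13109.8 against 11188. Without mice 4, 6, 8 and 10 the log2 fold change of Grin2a was 0.286 (adjusted p = 0.269). Grin2d, the slow subunit of interneurons, was lower (126 ± 91.8 in PYR and 636 ± 254 in SST libraries; log2 fold change -2.77, SE 0.52, adjusted p = 6.97e-06) along with Grin3a. The ratio of Grin2a to Grin2b differed by 0.240 (SE 0.152; higher in PYR in 8 of 10 mice; exact test, adjusted p = 0.143), which did not pass. Of 9 genes of metabotropic receptors and their Homer partners 3, Grm2, Grm3 and Grm8, were higher in PYR and 1 was lower, and 1 and 1 with 1 prior variance.

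Scaffold and spine genes and genes of CaM kinases, protein kinase C and Ras, where they were called, were higher in PYR but for 1. Of 24 scaffold and spine genes 12 were higher in PYR and 0 lower (median 0.62), and of 30 genes of CaM kinases, protein kinase C and Ras 18 were higher and 1, Rasgrf2, lower (median 0.73), against a median of 0.06 and 4.09% higher over all genes. These counts depend on the variance model: with 1 prior variance 4 of the scaffold genes and 4 of the signalling genes were higher, and without mice 4, 6, 8 and 10 12 and 12. Kalrn, a spine exchange factor for Rac, averaged 9670.1 ± 1400.2 in PYR and 5156 ± 721 in SST libraries (log2 fold change 0.91, SE 0.09, adjusted p = 1.71e-23). Baiap2, an actin-bundling scaffold, averaged 1769.8 ± 487 in PYR and 503 ± 188 in SST libraries (log2 fold change 1.86, SE 0.24, adjusted p = 4.16e-12). Cnksr2, a scaffold of Ras signalling, averaged 4152 ± 878 in PYR and 1939.5 ± 501 in SST libraries (log2 fold change 1.11, SE 0.14, adjusted p = 1.05e-13). Kalrn and Baiap2 did not overlap between the types, and Cnksr2 did slightly. Camk2a, the alpha chain of CaM kinase II that cortical interneurons are known to lack, averaged 10372 ± 1507 in PYR and 6354 ± 1321 in SST libraries (log2 fold change 0.72, SE 0.08, adjusted p = 5.74e-17), so SST libraries held 61.3% of its PYR mean. The mRNA of Camk2a is known to lie in dendrites, and the part of neighbouring pyramidal processes in its SST level was not tested. Camk2b averaged 4250.4 ± 639 in PYR and 2125 ± 431 in SST libraries (log2 fold change 1.02, SE 0.13, adjusted p = 2.84e-12). The log2 ratio of Camk2a to Camk2b differed by -0.295 (1.29 ± 0.250 in PYR and 1.58 ± 0.439 in SST libraries, SD, n = 10 each; exact test, adjusted p = 0.0286), a difference that did not pass when mice were not paired and was -0.0309 in UCMS mice (exact p = 0.836). The summed astrocyte markers, most of them Slc1a2, were also higher in PYR in the paired test, by the values given above, and their part in the synaptic lists was not tested.

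Presynaptic genes split by family member. Bsn, the giant scaffold bassoon, averaged 20032 ± 2716 in PYR and 10045 ± 1424 in SST libraries (log2 fold change 1.00, SE 0.06, adjusted p = 9.73e-58) without overlap. Of 19 active zone genes 5 were higher in PYR and 8 lower (median -0.06), which became 1 and 3 with 1 prior variance, and 3 and 6 without mice 4, 6, 8 and 10. Rab3b, a vesicle GTPase, ran from 0 to 368 in PYR libraries (median 83.4), against 972 to 2534 in SST libraries (median 1431) (log2 fold change -4.65, SE 0.46, adjusted p = 1.63e-21). Rab3c, its paralogue, averaged 2154 ± 669 in PYR and 4119 ± 679 in SST libraries (log2 fold change -0.98, SE 0.13, adjusted p = 3.67e-11). Synpr, a vesicle membrane protein, averaged 168 ± 121 in PYR and 1589.5 ± 334 in SST libraries (log2 fold change -3.52, SE 0.35, adjusted p = 4.81e-21). Cplx1, a complexin that clamps vesicle fusion, averaged 1633 ± 505 in PYR and 3347 ± 700.0 in SST libraries (log2 fold change -1.05, SE 0.15, adjusted p = 5.4e-10). Sv2b and Sv2a, paralogues on the vesicle, went opposite ways: Sv2a stood at 2524 against 4068 (log2 fold change -0.65, adjusted p = 2.78e-05). Sv2a was picked for this contrast after its values were seen. Of 34 SNARE, complexin and synaptotagmin genes 7 were higher and 4 lower, with a median of 0.23, where 4.09% of all genes were higher and 2.95% lower. The balance did not hold in other fits: the counts were 1 and 1 with 1 prior variance, and 4 and 5 without mice 4, 6, 8 and 10.

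Ion channel genes were called in both directions. Of 42 potassium channel genes 10 were higher in PYR and 9 lower (median 0.12), where 4.09% of all genes tested were higher and 2.95% lower. These counts became 6 and 3 with 1 prior variance and 5 and 6 without mice 4, 6, 8 and 10. Kcnc2, a Kv3 channel of fast repolarization, ran from 16.3 to 432 in PYR libraries (median 218), against 1127 to 3235 in SST libraries (median 2566) (log2 fold change -3.78, SE 0.30, adjusted p = 6.98e-34). Kcnip1, a Kv4 partner, ran from 0 to 189 in PYR libraries (median 5.61), against 56.5 to 1203 in SST libraries (median 466) (log2 fold change -4.67, SE 0.80, adjusted p = 3.93e-07). On the other side Kcnh1 averaged 1224 ± 419 in PYR and 381 ± 219 in SST libraries (log2 fold change 2.17, SE 0.33, adjusted p = 6.74e-09), with calls lost at a pseudocount of 1 (adjusted p = 0.118) and without mice 6, 9 or 10. Kcnma1, the large-conductance calcium-activated channel, averaged 2831 ± 371 in PYR and 1901 ± 502 in SST libraries (log2 fold change 0.60, SE 0.15, adjusted p = 0.00191). Calcium channel auxiliary subunits parted: Cacna2d1 ran from 1521 to 2527 in PYR libraries (median 1818), against 149 to 638 in SST libraries (median 360.4) (log2 fold change 2.45, SE 0.26, adjusted p = 1.41e-18). Cacna2d2 ran from 9.50 to 302 in PYR libraries (median 105), against 600.0 to 1773 in SST libraries (median 950.4) (log2 fold change -3.54, SE 0.45, adjusted p = 7.73e-13), and like it Cacna2d3 was lower in PYR. Cacna2d3 averaged 670.1 ± 243 in PYR and 1876 ± 512 in SST libraries (log2 fold change -1.53, SE 0.22, adjusted p = 9.92e-10). Of 15 calcium channel genes 6 were higher and 2 lower in PYR (median 0.56), whereas with 1 prior variance 1 was higher and 2 were lower.

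The sodium channel Scn1a, whose loss impairs interneurons, averaged 1034 ± 369 in PYR and 3123 ± 792 in SST libraries (log2 fold change -1.64, SE 0.17, adjusted p = 2.18e-18) and did not overlap. Scn2a, known from the axon of pyramidal cells, averaged 6411 ± 939 in PYR and 5010.2 ± 616 in SST libraries (log2 fold change 0.35, SE 0.10, adjusted p = 0.00561), and its call ended in 6 of 25 other fits. The log2 ratio of Scn1a to Scn2a was -2.70 ± 0.603 in PYR and -0.708 ± 0.375 in SST libraries (SD, n = 10 each; difference -1.99, SE 0.230; exact test, adjusted p = 0.00391), lower in PYR in 10 of 10 mice. Of 9 genes of the sodium-potassium pump 1 was higher in PYR and 3 were lower (median -0.22), and limma with 1 prior variance called 0 of them. Atp1b1, a beta chain, averaged 4593 ± 533 in PYR and 8759 ± 998 in SST libraries (log2 fold change -0.93, SE 0.09, adjusted p = 2.58e-22). Nme7 covers 18.7% of the exon bases of Atp1b1 on the other strand.

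**Figure D4:**
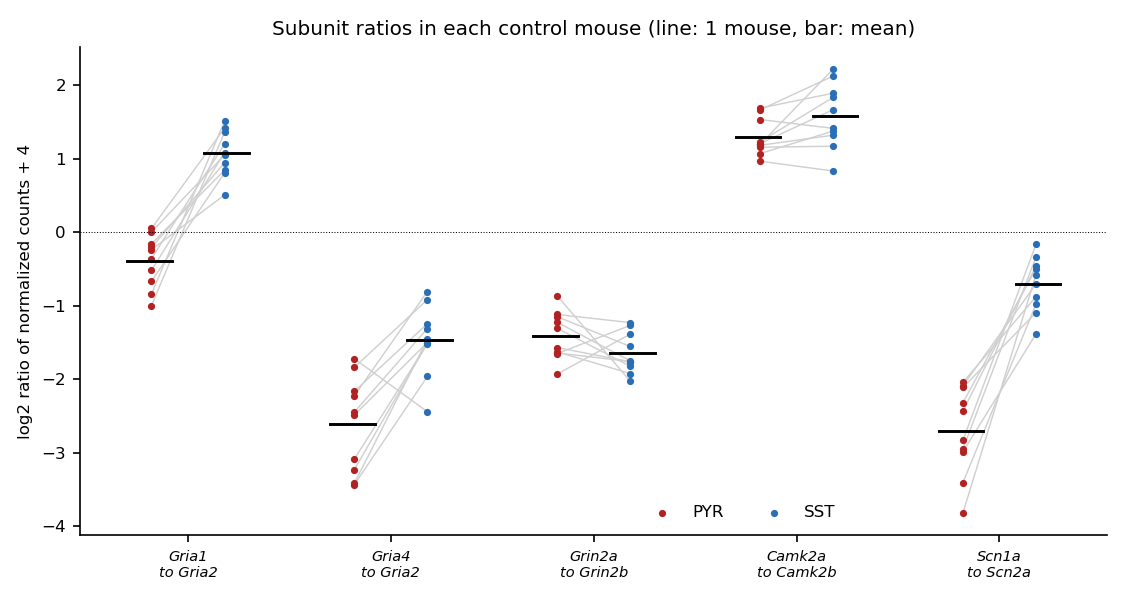
Log2 ratio of 2 genes' normalized counts (each + 4) in the PYR (red, left) and SST library (blue, right) of each of the 10 control mice, joined by a line, with the mean as a bar. Gria1 to Gria2 and Scn1a to Scn2a were lower in PYR in 10 of 10 mice, and Grin2a to Grin2b did not pass its test.

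Most GABA-A receptor genes were not called, though over all genes tested only 4.09% were higher in PYR and 2.95% lower. The list held Gphn, Slc12a2 and Slc12a5 beside the subunits. Of its 15 genes tested 2 were higher in PYR, 1 was lower and 12 did not pass (median 0.48). With 1 prior variance limma called 0 of them, and without mice 4, 6, 8 and 10 3 were higher and 0 lower. Gabra5, a subunit of extrasynaptic receptors, averaged 423 ± 199 in PYR and 128 ± 94.5 in SST libraries (log2 fold change 2.30, SE 0.61, adjusted p = 0.00403), though its adjusted p was 0.0932 with all 40 control libraries. Gabra3 averaged 664 ± 156 in PYR and 990.5 ± 365 in SST libraries (adjusted p = 0.29, not called).

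Neuropeptide genes, where they were called, were mostly lower in PYR. Of 23 precursors 10 were lower in PYR and 1, Cck, higher (median -1.19), where 2.95% of all genes tested were lower and 4.09% higher. The 10 include the probed Sst. Pdyn, which encodes the dynorphins, ran from 0 to 146 in PYR libraries (median 21.5), against 293 to 1879 in SST libraries (median 686) (log2 fold change -5.02, SE 0.71, adjusted p = 1.58e-10). Nxph1, a secreted ligand of neurexins that was placed on this list, ran from 0 to 136 in PYR libraries (median 19.1), against 915 to 2523 in SST libraries (median 1536) (log2 fold change -6.47, SE 0.60, adjusted p = 2.77e-24). Cck, cholecystokinin, ran from 917 to 2137 in PYR libraries (median 1365), against 0 to 672 in SST libraries (median 299.9) (log2 fold change 3.12, SE 0.41, adjusted p = 4.54e-09). Cck did not overlap between the types, yet its adjusted p was from 0.0613 to 0.0890 with a pseudocount of 1, with genes detected as a covariate, and without mouse 2, 3 or 9. VIP libraries held 1269 of it.

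Receptors for peptides included both directions, 4 higher and 6 lower of 22 (median 0.29). The binding protein Crhbp was placed on this list and is 1 of the 6. Vipr1, a receptor for vasoactive intestinal peptide, ran from 254 to 535 in PYR libraries (median 400.1), against 0 to 117 in SST libraries (median 4.32) (log2 fold change 4.60, SE 0.82, adjusted p = 1.35e-06). Crhr1, the main receptor for corticotropin-releasing hormone, averaged 162 ± 79.2 in PYR and 30.0 ± 49.9 in SST libraries (log2 fold change 3.65, SE 0.92, adjusted p = 0.00195). The binding protein of that hormone, Crhbp, ran from 0 to 3.28 in PYR libraries (median 0), against 204 to 959 in SST libraries (median 597) (log2 fold change -6.90, SE 0.90, adjusted p = 3.07e-12). Crhbp had reads in 2 of the 10 PYR libraries. Adcyap1r1, the PACAP receptor, averaged 792 ± 309.9 in PYR and 1811 ± 307 in SST libraries (log2 fold change -1.28, SE 0.22, adjusted p = 2.54e-07). Among receptors for other transmitters Chrm1, the M1 muscarinic receptor, averaged 1861 ± 233 in PYR and 839.5 ± 329 in SST libraries (log2 fold change 1.26, SE 0.21, adjusted p = 1.84e-07) without overlap. Htr7 averaged 25.2 ± 44.9 in PYR and 145 ± 94.7 in SST libraries (log2 fold change -3.31, SE 0.94, adjusted p = 0.00962). It was the single serotonin receptor called of 11, a share near the 7.04% of all genes, and the median log2 fold change of the 11 was 1.22, with 8 of them positive.

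Some genes had no read at all on one side. Of the genes lower in PYR 15 were at 0 in all 10 PYR libraries, and of those higher in PYR 2 were at 0 in all 10 SST libraries. The 5 with the highest SST means, named after their values were seen, were Ecel1, an endothelin-converting enzyme relative, at 226 (reads in 8 of 10 SST libraries), Rxfp3, the relaxin-3 receptor, at 176 (9 of 10), Snx31, a sorting nexin, at 164 (5 of 10), Crhr2, a second CRH receptor, at 132 (9 of 10), and Nxph2 at 111 normalized counts (7 of 10). Against a floor of 3 reads per PYR library these were at least 90.1-fold, 69.9-fold, 65.1-fold, 52.3-fold and 44.2-fold lower in PYR. Such floors cover counting error only.

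Genes switched on by activity, where they were called, were higher in PYR. Immediate early genes respond within minutes to calcium entry, in part through the factor CREB, which binds the cAMP response element. Of 20 genes listed as such, Bdnf and Nptx2 counted among them, 9 were higher in PYR and 0 lower, with a median log2 fold change of 1.22. Over all genes tested 4.09% were higher and 2.95% lower. On the list 3 were higher with 1 prior variance, 6 without mice 4, 6, 8 and 10, and 7 without mouse 6. Bdnf, the brain-derived neurotrophic factor, ran from 24.3 to 342 in PYR libraries (median 152), against 0 to 13.3 in SST libraries (median 0) (log2 fold change 4.90, SE 0.95, adjusted p = 1.29e-05). It had reads in 3 of the 10 SST libraries, and 14.4% of its exon bases lie under an antisense gene model. Nr4a3, an orphan nuclear receptor, averaged 472 ± 176 in PYR and 144 ± 145 in SST libraries (log2 fold change 2.49, SE 0.57, adjusted p = 0.000519). Egr3, a zinc-finger factor, averaged 381 ± 196 in PYR and 198 ± 355 in SST libraries (log2 fold change 2.37, SE 0.64, adjusted p = 0.00502). Nptx2, an activity-regulated pentraxin, averaged 324 ± 127 in PYR and 113 ± 102 in SST libraries (log2 fold change 2.37, SE 0.68, adjusted p = 0.0112). Egr3 was as high as 1177 in SST library U6, above every PYR library, and its call and that of Nptx2 ended with all 40 control libraries (adjusted p = 0.0875 and 0.112). Of 7 genes of BDNF, neurotrophin receptors and sorting receptors 4 were higher in PYR (2 with 1 prior variance) and 0 lower. Besides Bdnf these were Sort1, a sorting receptor of neurotrophins (3033 against 1825, log2 fold change 0.74, SE 0.15, adjusted p = 4e-05), Sorcs1, its relative (796 against 287, log2 fold change 1.43, SE 0.36, adjusted p = 0.00172), and Ntrk3. Ntrk2, the receptor of BDNF, was not called, at 3788 to 4860 in PYR and 2826 to 8035 in SST libraries.

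Part of that element was looked for in the DNA before these genes. RefSeq promoter windows (GRCm38.p6) were searched for the half-site TGACG and its reverse complement CGTCA on both strands, over the 250 bases before each start site; the full site TGACGTCA holds 2 overlapping half-sites. The half-site was present in 17.8% of all 32851 windows, in 25.3% of those of genes tested, in 19.8% of those of genes higher in PYR and in 17.8% of those of genes lower in PYR. Among immediate early genes it was in 57.7% of windows. Counted by gene, 29.6% of genes tested had it in at least 1 window. Of 15 immediate early genes with a window 13 did, 6 of 6 among those higher in PYR and 7 of 9 among those not called. The stretches are shown 5′ to 3′ on the gene's strand, with half-sites in capitals and exons annotated by GENCODE left out: 4 immediate early genes higher in PYR, then Cck, also higher, and Cort, the precursor of cortistatin, lower in PYR. Egr4, Nr4a1 and Cort were chosen after their values were seen, and these windows were printed because they hold a match. The half-site itself was picked after 8 motifs had been tried, for its share in immediate early genes, so that share is a description of these letters.
Bdnf at chr2:109692186-109692435, plus strand: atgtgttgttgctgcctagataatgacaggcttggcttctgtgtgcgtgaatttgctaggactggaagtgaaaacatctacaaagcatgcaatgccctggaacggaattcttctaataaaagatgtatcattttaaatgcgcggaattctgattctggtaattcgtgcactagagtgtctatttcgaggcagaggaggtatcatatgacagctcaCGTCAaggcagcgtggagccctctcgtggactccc
Nr4a1 at chr15:101266596-101266845, plus strand: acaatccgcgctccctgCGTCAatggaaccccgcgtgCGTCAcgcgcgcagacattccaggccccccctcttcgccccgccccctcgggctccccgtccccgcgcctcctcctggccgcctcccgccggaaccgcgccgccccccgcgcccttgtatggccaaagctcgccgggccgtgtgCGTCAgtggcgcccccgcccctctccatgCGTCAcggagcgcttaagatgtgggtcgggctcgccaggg
Nr4a3 at chr4:48045055-48045152, plus strand: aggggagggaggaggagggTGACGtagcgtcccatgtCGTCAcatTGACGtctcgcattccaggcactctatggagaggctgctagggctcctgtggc
Egr4 at chr6:85513590-85513839, minus strand: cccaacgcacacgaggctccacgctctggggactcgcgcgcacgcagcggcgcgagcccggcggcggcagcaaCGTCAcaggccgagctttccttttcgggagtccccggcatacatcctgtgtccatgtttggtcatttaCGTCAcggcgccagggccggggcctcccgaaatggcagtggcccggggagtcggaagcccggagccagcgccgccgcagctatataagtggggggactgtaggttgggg
Cck at chr9:121495695-121495944, minus strand: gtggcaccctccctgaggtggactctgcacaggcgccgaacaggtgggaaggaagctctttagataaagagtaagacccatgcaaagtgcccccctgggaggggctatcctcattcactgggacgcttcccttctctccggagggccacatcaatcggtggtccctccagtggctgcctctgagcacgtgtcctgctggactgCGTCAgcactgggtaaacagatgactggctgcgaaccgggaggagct
Cort at chr4:149126764-149127013, minus strand: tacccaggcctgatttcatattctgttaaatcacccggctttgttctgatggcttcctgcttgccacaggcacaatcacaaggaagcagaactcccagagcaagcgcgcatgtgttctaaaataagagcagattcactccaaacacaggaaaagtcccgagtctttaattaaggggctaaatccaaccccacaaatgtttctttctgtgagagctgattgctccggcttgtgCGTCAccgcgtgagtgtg
The Bdnf stretch is 1 of 7 windows of that gene and the only 1 of them with a half-site. Nr4a1 averaged 475 ± 376 in PYR and 188 ± 150.4 in SST libraries (log2 fold change 1.81, SE 0.54, adjusted p = 0.017) and Egr4 99.8 ± 70.1 in PYR and 17.8 ± 36.8 in SST libraries (log2 fold change 2.99, SE 0.95, adjusted p = 0.0277), both overlapping. Cort averaged 0.0787 ± 0.249 in PYR and 219.9 ± 250.3 in SST libraries (log2 fold change -4.73, SE 0.95, adjusted p = 2.95e-05), with reads in 1 of 10 PYR libraries. The half-site thus stands before genes of either direction.

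Adhesion and guidance genes that were called in the main fit were mostly higher in PYR, as were 58.1% of all genes called there. Over all genes tested 4.09% were higher and 2.95% lower. Of 43 synaptic adhesion genes 15 were higher and 5 lower (median 0.35), and of 42 axon guidance genes 11 were higher and 4 lower (median 0.60). With 1 prior variance 3 were higher and 3 lower among the adhesion genes, and 3 and 2 among the guidance genes; without mice 4, 6, 8 and 10 these were 10 and 4, and 6 and 3. Nrxn3, a presynaptic neurexin, ran from 1803 to 3082 in PYR libraries (median 2182), against 4402 to 7018 in SST libraries (median 5887) (log2 fold change -1.39, SE 0.12, adjusted p = 3.08e-28). Clstn1, a calsyntenin, averaged 8575 ± 1001 in PYR and 5711 ± 974 in SST libraries (log2 fold change 0.60, SE 0.09, adjusted p = 5.52e-10). Epha4, an ephrin receptor of corticospinal axons, ran from 1329 to 2860.4 in PYR libraries (median 1744), against 286 to 791 in SST libraries (median 469) (log2 fold change 1.98, SE 0.24, adjusted p = 5.27e-14). Plxna4, a semaphorin receptor, averaged 2259 ± 604.6 in PYR and 1277 ± 418 in SST libraries (log2 fold change 0.84, SE 0.18, adjusted p = 0.000119). Epha4 did not overlap, but its adjusted p was 0.0674 with all 40 control libraries. Cdh4, a cadherin, averaged 175 ± 134 in PYR and 667 ± 225 in SST libraries (log2 fold change -2.25, SE 0.46, adjusted p = 3.84e-05). Erbb4, the neuregulin receptor of interneurons, averaged 268 ± 157 in PYR and 1873 ± 937 in SST libraries (log2 fold change -2.98, SE 0.31, adjusted p = 9.21e-20).

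Imprinted genes, which are expressed from the allele of 1 parent, were lower in PYR where they differed. With 1 prior variance 4 of them were lower, and without mice 4, 6, 8 and 10 6 were. Over all genes tested 2.95% were lower and 4.09% higher in the main fit. There 10 of 28 imprinted genes were lower and 0 higher (median -0.49, against 0.06 over all genes). Besides Peg3 these included its neighbours Usp29 and Zim1; Zim1 averaged 14.6 ± 38.1 in PYR and 263 ± 202 in SST libraries (log2 fold change -4.86, SE 0.92, adjusted p = 7.98e-06). Nap1l5, a histone chaperone relative, averaged 1106 ± 409.8 in PYR and 2643 ± 517 in SST libraries (log2 fold change -1.30, SE 0.18, adjusted p = 3.83e-11). Meg3 and Rian, long noncoding RNAs of 1 maternally expressed cluster, averaged 24508 ± 3948 in PYR and 44143 ± 10511 in SST libraries (log2 fold change -0.83, SE 0.13, adjusted p = 0.00415) and 2814 ± 408 in PYR and 4728 ± 880.0 in SST libraries (log2 fold change -0.73, SE 0.12, adjusted p = 9.85e-08), and Rtl1, expressed from the paternal allele of that region, was lower as well. Peg13, a noncoding RNA within another imprinted region, averaged 1561 ± 396 in PYR and 2624 ± 564 in SST libraries (log2 fold change -0.76, SE 0.16, adjusted p = 0.000132). Meg3 alone did not overlap among these noncoding RNAs. Long intergenic noncoding RNAs as a class took 1.98% ± 0.298 of the reads in PYR and 2.52% ± 0.323 in SST libraries (SD, n = 10 each; lower in PYR in 10 of 10 mice; exact test, adjusted p = 0.00742 over 19 library measures).

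Other noncoding RNAs differed one by one. Dlx6os1, transcribed beside the Dlx5 and Dlx6 genes, averaged 16.6 ± 22.6 in PYR and 275 ± 153 in SST libraries (log2 fold change -4.23, SE 0.89, adjusted p = 9.82e-05). Sox1ot, which spans Sox1, averaged 27.98 ± 50.4 in PYR and 313 ± 98.0 in SST libraries (log2 fold change -4.50, SE 0.85, adjusted p = 8.75e-06). Miat, a nuclear RNA, averaged 3098 ± 634 in PYR and 1766 ± 490.2 in SST libraries (log2 fold change 0.86, SE 0.15, adjusted p = 1.22e-06), and 24.3% of its exon bases are shared with a model on the other strand. Pcsk2os1, antisense to Pcsk2, averaged 112 ± 76.1 in PYR and 6.35 ± 10.5 in SST libraries (log2 fold change 3.53, SE 0.95, adjusted p = 0.00497), a call that edgeR did not make. Rnu1a1, a U1 spliceosomal RNA model, averaged 1547 ± 1149 in PYR and 938 ± 714 in SST libraries (log2 fold change 0.80, SE 0.24, adjusted p = 0.0153), a call lost in 8 of 25 other fits, among them those with mice not paired (adjusted p = 0.284), with all 40 control libraries (0.165) and without mouse 7, 9 or 10. Of 37 snRNA models 10 were higher in PYR and 0 lower, where 4.09% of all genes tested were higher and 2.95% lower. These models are near-identical copies among which reads cannot be placed with certainty. Their joint share of the reads was 0.366% ± 0.235 in PYR and 0.260% ± 0.156 in SST libraries. That difference did not pass (exact sign-flip test over mice, adjusted p = 0.142), so no excess of the class as a whole was shown.

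Few genes of general upkeep were called, though over all genes tested only 4.09% were higher in PYR and 2.95% lower. Of 75 cytosolic ribosomal protein genes 0 were higher in PYR and 2 lower, Rps6 (805 against 1345, adjusted p = 0.0138) and Rpl3 (1992 against 2766, adjusted p = 0.0144), with a median log2 fold change of 0.02. The call of Rps6 was lost in 7 of 25 other fits, edgeR and those without mouse 2 or 9 among them, and that of Rpl3 in 6, edgeR (adjusted p = 0.134) and those without mouse 3 or 7 among them. Of 38 nuclear genes of oxidative phosphorylation limma called 0 in either direction, with a median of -0.00379. Of 13 proteins encoded in the mitochondrion 1 was lower, mt-Cytb (8021 against 9401, log2 fold change -0.24, adjusted p = 0.0351), a call lost in 16 of 25 other fits.

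The same contrast in the UCMS mice shares no library with the one above. There 1605 of 16806 genes were called (9.55%). In both sets 840 genes were called in the same direction, which is 71.6% of the control calls and 52.3% of the UCMS calls, and 0 in opposite directions; 461 of them were higher and 379 lower in PYR. Of the 1171 control calls tested in UCMS mice 1136, or 97.0%, had the same sign. The log2 fold changes of Sv2b were 2.58 in UCMS and 2.32 in control mice, those of Nptxr 1.58 and 1.60, of Gad2 -5.27 and -5.42, of Peg3 -1.48 and -1.49, and of Bdnf 4.10 and 4.90.

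The difference between the arms was tested in 1 model with an interaction term. It called 0 of 16646 genes (0.0%) by limma, with a smallest adjusted p of 0.901 and 869 genes at an unadjusted p under 0.05. UCMS mice were also singly housed, so stress and housing cannot be told apart in that term.

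**Figure D5:**
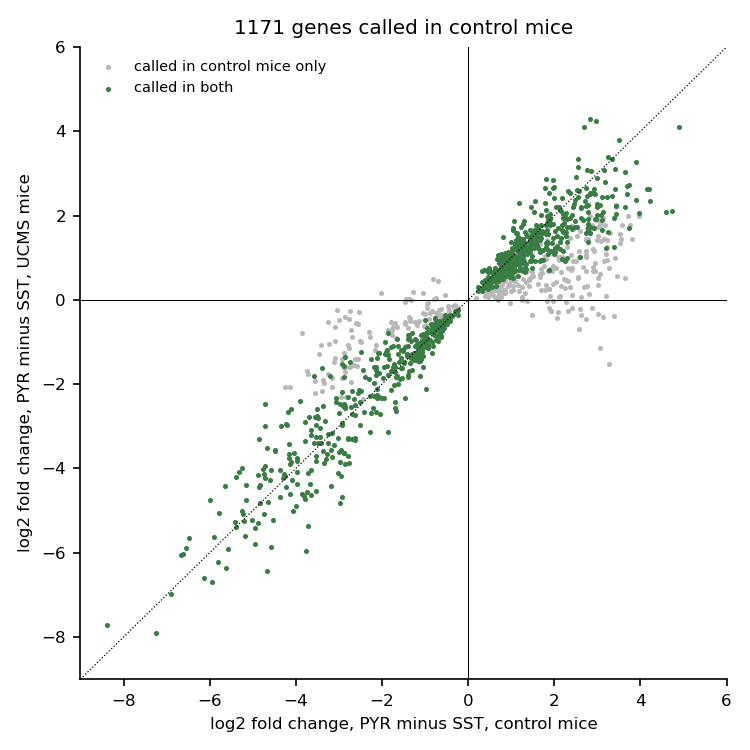
Log2 fold change, PYR minus SST, in UCMS mice (vertical) against control mice (horizontal) for the 1171 genes called in control mice and tested in both sets, with the line of equality dotted. The 840 genes called in both sets are green and lie at the lower left and the upper right, and the genes called in control mice only are grey.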

How the data were processed

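Values were read from 1 deposited table of 38879 genes by 79 libraries. Its values are a signal, normalized read counts: the authors scaled each library by 1 factor, as the values show, since 100% of them came out as whole reads within 0.001 of a read. Reads were aligned to GRCm38 (mm10) with HISAT2, with SAMtools 1.3 and DESeq2 also used, per the submitters' processing notes. What counted the reads, on which annotation and whether by strand is not given in the sources used here. Symbols came from GENCODE M21 by gene identifier (38636 of 38879 matched), because 26 symbols in the table had turned into dates and 183 were blank.

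Genes with a mean of at least 10 normalized counts over the 20 libraries were tested on log2(value + 4) with limma 3.58.1 in R 4.3.3, with a variance trend, robust empirical Bayes and the mouse as a block, and Benjamini-Hochberg adjustment over all genes tested. Fold changes are on that scale, PYR minus SST, which understates low genes. The median prior degrees of freedom were infinite, against 9 residual, so most standard errors come from the trend; with 1 prior variance the prior had 2.62. A number in the labels marks 1 mouse, which pairs its PYR and SST library, but the paired deviations from the group means correlated by a median of only 0.00251 (-0.0106 to 0.0230). Ratios and library measures were compared by exact sign-flip tests over the 10 mice, two-sided, with p-values adjusted over 8 ratios and 19 measures; 10 pairs allow no p under 0.00195. The recovered reads were also tested with edgeR 4.0.16 (896 genes called) and DESeq2 1.42.0 (2302 called). The limma fit was also run on simulated counts with planted changes, and how many of them it recovered is not given here.

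The members, gene lists, ratios and tests were chosen with earlier results of these data known. The rule for genes to name took, per direction, the 15 most extreme statistics among protein-coding genes called, changed at least 2-fold and moving 1 way in at least 9 of 10 mice; up to 4 members of each of 51 lists by smallest p, and all of short lists; the genes of the ratios; the probed genes; and 5 noncoding genes per direction. It named 264 genes. The text describes 108 of them, a subset picked after their values, their stability and their outlying libraries had been seen, so counts of stable genes and of outlying libraries are given for all 264. Results of some genes, 3 of the 8 ratios among them, are not reported here.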

Additional observations from a re-analysis of the deposited data

Results flagged for a closer look

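Single libraries stood apart from the other 9 of their type in 27 of the groups of 10 described, by Dixon's test at its 95% critical value. Over all 264 genes that the naming rule gave, 84 of 528 groups of 10 did so; chance flags about 1 in 20 groups of normal values.

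Among SST libraries U6 stood apart in 10 of the groups of all 264 genes, U4 in 9 and U10 in 8, and the other 7 in 1 to 3 each; PYR libraries did so in 2 to 8 each. In the groups described, U6 was the highest SST library in Rasgrp1 (4589, against a median of 1407 over SST libraries), Neurod2 (549, median 111), Egr3 (1177, median 80.6), Scn1a (4963, median 2982) and the summed microglia markers (1636, median 523), and the lowest in Rian (2532, median 4764). SST library U10 was highest in Olfm1 (4860.4, median 2834), Meg3 (69359, median 42633), Pvalb (279, median 12.9) and Vip (304, median 2.42), and lowest in Cplx1 (1603, median 3464). SST library U4 was highest in Cobl (1731, median 682) and Grik3 (8478, median 4334) and lowest in Miat (577, median 1802) and Camk2b (1162, median 2109.6).

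Other SST libraries stood apart as well. U3 was lowest in Sv2b (457, median 1646) and U1 highest in Pdyn (1879, median 686). U5 was highest in Bdnf (13.3, median 0).

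Among PYR libraries, U4 was highest in the summed markers of oligodendrocyte precursors (1872, median 602.2), in Egr3 (856, median 304) and in Sox1ot (164, median 7.34). U6 was highest in Sort1 (3868, median 2926), and U8 in Nell2 (7059.8, median 4965). U10 was lowest in Fat3 (2527, median 4318). U7 was highest in Rcan2 (774, median 349), U5 in Crhbp (3.28, median 0) and U2 in Zim1 (122, median 0). No cause of these values was tested.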

How the results depend on the processing

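Of the 264 genes that the naming rule gave, 163 were called, and 81 of those kept their call under all 25 alternatives run for single genes; 116 kept it under all but 1 prior variance, an alternative chosen after seeing the data. That alternative called 411 genes (180 higher and 231 lower in PYR, 388 of them among the 1174), and leaving out mice 4, 6, 8 and 10, also chosen after seeing the data, 770 (404 higher). DESeq2 called 2302 (1346 higher, 956 lower), all 40 control libraries together left 404 higher, and no filter on low counts 442 higher; the cause was not tested. Leaving out 1 mouse at a time gave from 960 to 1106 genes, from 536 to 622 higher and from 408 to 484 lower. Without the replicate block, that is with mice not paired, 1139 genes were called; the log2 ratio of Camk2a to Camk2b (-0.295, adjusted p = 0.0920) and the astrocyte sum (difference 1899, adjusted p = 0.0676) then no longer passed, and no other ratio or library measure changed its call. Vip, not called in any fit, changed sign with quantile normalization (-0.244), with reads thinned to the smallest total (-0.0356) and without mouse 2, 4 or 7 (-0.310, -0.138 and -0.322); leaving out 1 mouse at a time put it from -0.322 to 0.806. The other counts lay within 1.5 times the 1174, from 792 with no filter to 1244 with library weights. Of genes under a mean of 50 normalized counts 0.731% were called; with reads thinned to the smallest total 1179 genes were called in all, and what depth limits was not tested further.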

Other observations

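Some gene groups not described above had few calls that held. Over all genes tested 4.09% were higher in PYR and 2.95% lower. Of 21 genes of neurofilaments and microtubules 7 were higher in PYR and 1 lower (median log2 fold change 0.14), with Nefl, Nefm and Ina, chains of the neurofilament, among the 7, but limma with 1 prior variance called 0 of the 21, and without mice 4, 6, 8 and 10 4 were higher and 0 lower. Of 17 calcium-binding protein genes 6 were higher and 2, Calb1 and Calb2, lower (median 0.30; 3 and 2 with 1 prior variance). Of 12 genes of perineuronal nets and matrix, Ncan and Hapln4 were higher and 0 lower (median 0.15), whereas limma with 1 prior variance called 0, and without mice 4, 6, 8 and 10 1 was higher and 1 lower (median -0.22). Of 9 genes of the reelin pathway the adaptor Dab1 was higher and Reln lower; with 1 prior variance, and without those 4 mice, 0 were higher and 1 lower. Of 24 cadherins and protocadherins 2 were higher and 4 lower (median 0.22), against 0 and 2 with 1 prior variance and 4 and 5 without those 4 mice.

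The spread between mice was larger among SST libraries. The SD of log2 values had a median over genes of 1.35 in PYR and 1.84 in SST libraries, and it was larger in SST for 11757 of 16666 genes.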
